A study of Mus musculus with 18 samples.

Results

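The subunits of the respiratory chain and of ATP synthase were followed in distal colon tissue of mice that lack interleukin 10 and develop colitis with age. Members were taken by symbol from the gene table: nuclear genes named Nduf, Sdh, Uqcr, Cox and Atp5 in the patterns of the subunit families, and the mitochondrially encoded Nd, Co, Cytb and Atp genes. The patterns matched 99 of the 16321 genes of the table. Of these, 83 were nuclear genes, 13 were mitochondrially encoded and 3 were pseudogenes (Cox7c-ps1, Ndufa12-ps and Ndufb4c), whose counts can include reads of Cox7c, Ndufa12 and Ndufb4. Ndufb1-ps is protein coding in RefSeq, as Ndufb1, and was kept with the nuclear genes. By complex, the nuclear members were 36 of complex I, 4 of complex II, 8 of complex III, 18 of complex IV (Ndufa4, Ndufa4l2 and Cox7a2l among them) and 17 of complex V. All 99 passed the filter on low counts, so no member was lost from the tests.

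Oxidative phosphorylation passes electrons from NADH and succinate through complexes I to IV of the inner mitochondrial membrane. Complexes I, III and IV pump protons, and complex V (ATP synthase) uses the proton gradient to make ATP. Complexes I, III, IV and V are built from proteins of both genomes, whereas complex II, succinate dehydrogenase, is wholly nuclear. Mitochondrial genes are transcribed as long polycistronic RNAs that are cut into messages and polyadenylated, while nuclear subunit genes are mostly short, steadily transcribed genes. Colonocytes depend on this pathway to oxidise butyrate, their main fuel.

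The mice were BALB/c, and 3 distal colon samples were sequenced as polyadenylated RNA in each of 6 groups: wild type at week 6 of age, and Il10KO, a knockout of the Il10 gene, at weeks 6, 8, 10, 12 and 14. Each library is 1 mouse, and no wild type was sampled after week 6, so that age and colitis cannot be told apart. All 3 wild-type mice shared 1 cage that held no Il10KO mouse, so that cage and genotype cannot be told apart either. The Il10KO mice came from 6 cages, and several cages held mice of different ages. Il10 had 1, 0 and 3 estimated counts in the wild type and 0 in all 15 Il10KO libraries, and a count of 0 allows 3 counts, or 0.084 to 0.113 CPM (counts scaled to library size). The gene is too low in the wild type for this to check the labels.

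Library totals ran from 26495521 to 35497101 estimated counts. The RNA integrity number (RIN) was 8.4 to 9.3 in 16 libraries, and 6.5 and 5.8 in week 14 replicates 2 and 3, which stood apart from all others in the values below. The same 2 mice had the highest lipocalin levels given, 3758 and 4289 ng per g. Week 14 replicate 1 had 2044 ng per g and the Il10KO mice of week 6 had 2.27 to 4.72. Low RIN and high lipocalin cannot be told apart in the 2 libraries. Results that rest on these 2 libraries are given with and without them. Without them week 14 holds only replicate 1, so that for this age changes and no tests are given. CPM are scaled to effective library sizes by TMM, and changes are log2 fold changes ± SE from 1 edgeR quasi-likelihood model of all 18 libraries, 3 per group, with p-values adjusted over 16300 genes and called below 0.05. In bulk tissue, fewer cells of a type and less RNA per cell cannot be told apart.

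Marker genes of the tissue were present throughout. Summed over 9 pan-epithelial markers, the level was 10800 to 13100 CPM at Il10KO week 6 and 9880 to 12300 at week 14, and 10 colonocyte markers summed to 7370 to 7970 CPM at week 6, 5120 to 8030 at week 10 and 7080 to 9480 at week 14. Of these 10, 2 were called higher and 2 lower at week 10, against 14.6% and 9.48% of all genes. At week 14, 3 were higher and 1 lower, against 24.5% and 8.56%. Smooth muscle markers summed to 7260 to 8020 CPM at week 6, 1470 to 6060 at week 10 and 3520 to 6630 at week 12 (10 genes, none called). Without the 2 libraries of low RIN 5 of them were called lower at week 10, as were 4368 of all 16319 genes tested. Neutrophil markers went from 108 to 154 CPM at week 6 to 775 to 5290 at week 10, with 6 of 8 genes called higher, against 14.6% of all genes. At week 14 they summed to 377 CPM in replicate 1, 15500 in replicate 2 and 10300 in replicate 3. The part of these cell types in the subunit values was not tested.

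At week 6 of age no subunit gene passed the test between the genotypes. No member was called in Il10KO against wild type, by edgeR or by DESeq2, and none had an unadjusted p below 0.05. Of all genes, edgeR called 0.0% and DESeq2 23 of 16321. The nuclear median change was -0.08 and the mitochondrial median 0.15 on the log2 scale, beside -0.01 over all genes. Of the 83 nuclear genes, 59 had a negative change, as did 8376 of all 16300 genes. Groups did not overlap for 24 nuclear genes that were lower in Il10KO and 1 that was higher. Among all genes 2135 were lower and 2007 higher in this way. The most abundant nuclear member per length in complex IV, Cox6a1, which encodes a structural subunit of cytochrome c oxidase, had 480, 364 and 372 CPM in the wild type and 348, 384 and 384 in Il10KO.

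Relative to the mitochondrially encoded subunits, nuclear subunit levels were higher in all libraries of weeks 10 and 12 than at week 6 in Il10KO mice, and at week 14 only in the 2 libraries of low RIN. The nuclear median per library, taken against the mean of the week 6 Il10KO libraries, was -0.21, 0.71 and 0.36 at week 8, and week 10 libraries had 1.09, 1.28 and 0.4. The 6 oldest libraries had 1.58, 1.23 and 0.81 at week 12, with 0.16, 2.88 and 2.44 at week 14. Every week 10 and week 12 library lay above all 3 of week 6, while week 14 replicate 1 was close to them and replicates 2 and 3 were the highest of all. Mitochondrial medians showed no such order, at -0.24, -1.19 and -0.36 at week 8, 0.16, 0.15 and -0.41 at week 10, -0.03, 0.02 and 0.16 at week 12, with 0.19, 0.09 and -0.86 at week 14.

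**Figure D1:**
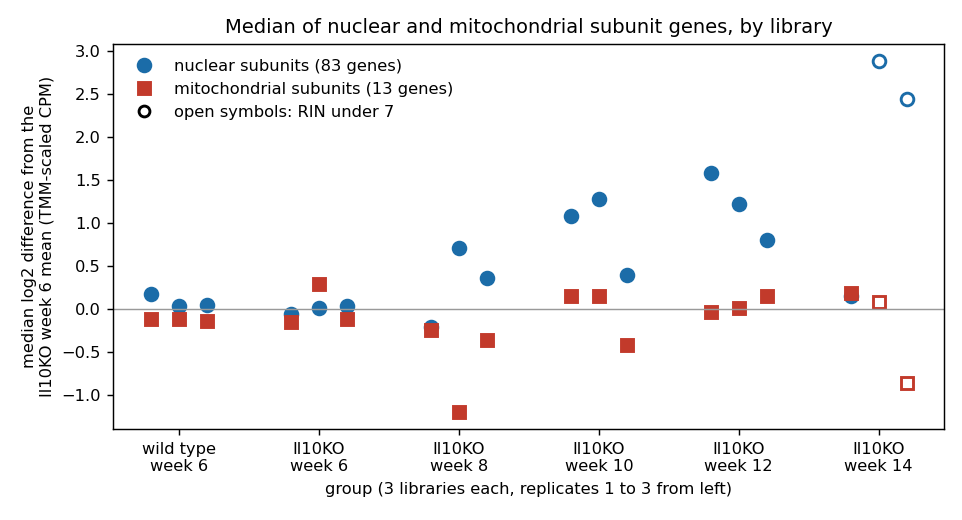
Median log2 difference from the Il10KO week 6 mean (vertical axis, TMM-scaled CPM) of 83 nuclear (circles) and 13 mitochondrially encoded (squares) subunit genes in each of the 18 libraries, grouped by genotype and age; open symbols mark the 2 libraries of RIN 6.5 and 5.8. The nuclear medians of weeks 10 and 12 lie between 0.4 and 1.58, and those of the 2 open symbols at 2.88 and 2.44, while week 14 replicate 1 is at 0.16.

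In the difference between the classes the scaling factor of a library cancels. The nuclear median change exceeded the mitochondrial one, each time against Il10KO week 6, by 0.91 at week 8 and 1.07 at week 10, then by 1.28 at week 12 and finally 2.28 at week 14. Without the 2 libraries of low RIN it was -0.03 at week 14, and 1.07 and 1.28 at weeks 10 and 12. On the TPM scale it was 1.02, 1.19 and 1.98 at weeks 10, 12 and 14. At week 8 it was 0.43 without replicate 2. By library, the difference was 0.29, 0.15 and 0.18 in the wild type, 0.1, -0.28 and 0.15 at Il10KO week 6, and week 8 libraries had 0.03, 1.9 and 0.72. Older libraries had 0.94, 1.14 and 0.81 at week 10, 1.61, 1.21 and 0.65 at week 12, with -0.04, 2.79 and 3.3 at week 14. The ranges of weeks 10 and 12 did not overlap that of week 6, and overlapped each other.

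As a share of the deposited TPM, which is corrected for transcript length, mitochondrial subunits made up 13.1, 15.9 and 13% of all transcripts at Il10KO week 6 and nuclear subunits 3.18, 3.18 and 3.36%. At week 12 the shares were 9.13, 10.7 and 13.3% and 5.9, 5.06 and 4.37%. At week 14 they were 15.5, 5.42 and 3.98% and 3.39, 7.62 and 7.19%. The 13 mitochondrial genes thus gave 4.11, 4.99 and 3.88 times the TPM of the 83 nuclear genes at week 6, 1.98, 2.25 and 2.6 times at week 10 and 1.55, 2.12 and 3.03 times at week 12. In week 14 replicates 2 and 3 the ratio was 0.711 and 0.554, below 1 in these libraries and in no other.

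The direction of each class on its own depended on the scale. With TMM the median change of all genes lay between -0.06 and 0.03, whereas on log2 of TPM plus 1 it was -0.34, -0.36 and -0.74 at weeks 10, 12 and 14. On that TPM scale the nuclear medians were 0.37, 0.60 and 0.56 and the mitochondrial ones -0.65, -0.59 and -1.42. Nuclear subunits lay above the median of all genes on both scales, while the mitochondrial medians of weeks 10 to 14 lay near it with TMM and below it on TPM.

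Week 8 gave no called member by edgeR or DESeq2. Of all genes, edgeR called 0.0675% higher, and DESeq2 called 226 of 16321 in either direction. Of the 83 nuclear genes, 77 had a positive change, with a median of 0.33, and all 13 mitochondrial genes had a negative one, with a median of -0.58. The 3 libraries of week 8 differed among themselves. Replicate 1, of RIN 9.1, had medians below those of week 6 in both classes, and 61 of its nuclear genes lay below all week 6 libraries. Replicate 2, of RIN 8.4, had all 13 mitochondrial genes below every week 6 library, at -0.58 to -1.86 against the week 6 mean on the log2 scale. The cytochrome b gene mt-Cytb, for example, had 4920, 2430 and 4630 CPM at week 8 and 5370, 7040 and 5540 at week 6. Groups did not overlap for 2 nuclear genes that were higher (11.1% of all genes were) and for 10 mitochondrial genes that were lower (12.8% of all genes were). In edgeR no member had an unadjusted p below 0.05, and in DESeq2 2 did. With cage as a factor the nuclear median of week 8 was -0.34 and the class difference 0.47.

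At week 10, 3 members were called higher and none lower, against 14.6% and 9.48% of all genes. They were Sdhd, Uqcrfs1 and Uqcrc2, nuclear subunits of complexes II and III. Sdhd encodes the small membrane anchor that holds haem and ubiquinone in succinate dehydrogenase. It had 172, 159 and 166 CPM at Il10KO week 6 and 581, 500 and 328 at week 10, a change of 1.50 ± 0.48 (adjusted p = 0.0364). Its levels were 248, 188 and 200 in the wild type, 169, 411 and 222 at week 8, 689, 531 and 364 at week 12, with 237, 1220 and 1100 at week 14. All week 10 and week 12 values exceeded those of the wild type and of week 6. The promoter window of Sdhd, in the table of RefSeq for GRCm38.p6 at chr9:50603800-50604099 on the minus strand, is shown because this gene was the most changed of the 3, with a match to the core letters of the ETS factors in capitals.
Sdhd: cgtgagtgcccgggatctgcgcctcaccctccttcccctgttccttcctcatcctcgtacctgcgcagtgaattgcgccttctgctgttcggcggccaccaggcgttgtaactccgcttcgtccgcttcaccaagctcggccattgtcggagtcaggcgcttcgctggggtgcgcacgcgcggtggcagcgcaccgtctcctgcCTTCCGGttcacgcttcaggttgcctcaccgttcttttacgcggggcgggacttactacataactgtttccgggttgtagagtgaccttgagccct

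Uqcrfs1 encodes the Rieske iron-sulphur protein, which takes the electrons of ubiquinol in complex III. It had 202, 205 and 200 CPM at week 6, 566, 500 and 333 at week 10, 454, 397 and 358 at week 12, with 275, 741 and 777 at week 14, and rose by 1.20 ± 0.33 at week 10 (adjusted p = 0.0217). In the wild type it had 218, 204 and 209 CPM, and 212, 355 and 316 at week 8. The week 6 libraries lay close together, and each later library from week 8 on was above them. Uqcrc2, a core subunit of complex III, had 305, 341 and 325 CPM at week 6 and 536, 497 and 441 at week 10, a rise of 0.60 ± 0.20 (adjusted p = 0.0408). On the TPM scale the change of Uqcrc2 was -0.01, and that of Uqcrfs1 0.58 and of Sdhd 0.88, beside -0.34 for all genes.

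All 3 calls were lost when any one library of week 6, or week 10 replicate 1 or 2, was left out. Those fits called 767 to 1824 of all genes. Without week 10 replicate 3, 18 members were called, and 5242 of all 16320 genes. The number of calls at week 10 also depended on the week 14 libraries, since all groups share 1 estimate of the spread. Without week 14 replicates 2 and 3, 56 of the 83 nuclear genes were called higher at week 10 and none lower, against 24.6% of all genes called higher. At week 12 the edgeR fit of all 18 libraries called no member (59 had an unadjusted p below 0.05) and 1.36% of all genes higher. DESeq2 called 24 members there, and 2507 of all 16321 genes. Without week 14 replicates 2 and 3, 64 nuclear genes were called higher and 1 lower at week 12. The background was 18.8% higher and 22.0% lower. None of the 13 mitochondrial genes was called at either age. The nuclear medians in this fit were 0.95 at week 10 and 1.19 at week 12, and the mitochondrial medians -0.12 and -0.09.

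Ndufs4, an accessory subunit that completes the NADH-oxidising arm of complex I, was among the 5 members with the smallest p across the 5 ages. It had 41, 50.1 and 44.4 CPM at week 6, 197, 148 and 70.9 at week 10, then 159, 145 and 101 at week 12. Without the 2 libraries of low RIN it rose by 1.55 at week 10 (edgeR adjusted p = 0.00117) and by 1.51 at week 12 (0.00438). Its RefSeq promoter window (GRCm38.p6, chr13:114388045-114388344, minus strand) is printed for the match to the YY1 letters, in capitals, near the end of the window.
Ndufs4: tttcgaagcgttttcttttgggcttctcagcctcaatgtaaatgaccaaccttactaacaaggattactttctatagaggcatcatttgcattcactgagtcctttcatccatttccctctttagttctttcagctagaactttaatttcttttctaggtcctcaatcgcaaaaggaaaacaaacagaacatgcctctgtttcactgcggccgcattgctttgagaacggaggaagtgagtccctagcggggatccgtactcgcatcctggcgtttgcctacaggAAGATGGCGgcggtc

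Atp5e encodes the epsilon subunit of ATP synthase and had the highest mean TPM of the nuclear complex V genes. It had 104, 117 and 112 CPM at week 6, 451, 364 and 122 at week 10, then 509, 403 and 251 at week 12, and week 10 replicate 3 lay close to week 6. Wild-type levels were 110, 99.5 and 97.2 CPM and those of week 8 88.1, 186 and 141. In the fit of 16 libraries it rose by 1.42 at week 10 (edgeR adjusted p = 0.00788) and by 1.73 at week 12 (0.00622). The RefSeq window of its promoter (GRCm38.p6, chr2:174464052-174464351, minus strand) also holds an ETS match, in capitals.
Atp5e: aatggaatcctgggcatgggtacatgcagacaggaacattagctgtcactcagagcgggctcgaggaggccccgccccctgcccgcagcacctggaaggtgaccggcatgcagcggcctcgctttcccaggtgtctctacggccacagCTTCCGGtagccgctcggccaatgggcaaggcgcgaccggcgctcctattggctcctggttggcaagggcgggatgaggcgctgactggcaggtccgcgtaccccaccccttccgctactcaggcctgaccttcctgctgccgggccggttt

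Promoter windows of 300 bases were found for 67 of the 83 nuclear members and 12313 genes of the table, 1 window per gene. The ETS letters CCGGAAG, read on both strands, were in 23.9% of the members' windows and in 15.7% of all windows. The YY1 letters AAGATGGCG were in 8.96% and 2.7%, and the NRF1 palindrome in 7.46% and 1.81%. At least 1 of these was found in 25 of the 67 windows (37.3%), against 19.3% of all. The letters TATAAA were in 10.4% of the members' windows and in 8.56% of all. These motifs do not overlap each other in the windows printed, and a match describes letters and not binding.

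By complex, the nuclear changes at week 10 had medians of 1.01 in complex I, 0.73 in complex II, 1.08 in complex III, 0.86 in complex IV and 1.05 in complex V. All 36 genes of complex I, all 8 of complex III and all 17 of complex V had a positive change. Groups did not overlap, with week 10 above week 6, for 69 of the 83 nuclear genes, against 27.5% of all genes. At week 12 this held for 70 of 83, against 32.8% of all genes, with complex medians between 0.56 (complex II) and 1.48 (complex III). Between weeks 10 and 12 no member was called by edgeR or DESeq2, and none had an unadjusted p below 0.05 in edgeR. Of all genes, edgeR called 0.448% and DESeq2 822 of 16321. The median changes were 0.22 for the nuclear and 0.14 for the mitochondrial genes.

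**Figure D2:**
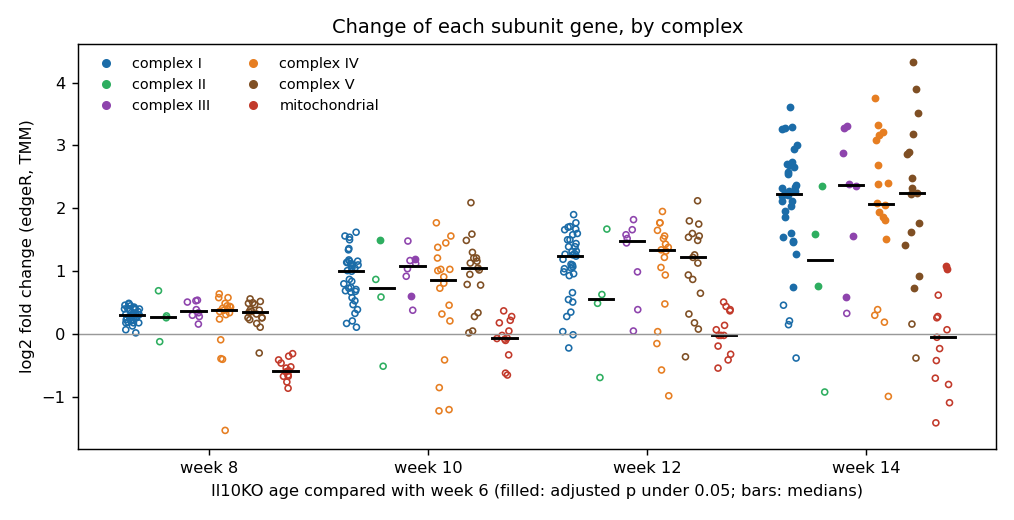
Log2 fold change of each nuclear subunit gene, by complex, and of the 13 mitochondrial genes (vertical axis) at weeks 8, 10, 12 and 14 against Il10KO week 6; filled points have an adjusted p below 0.05 and bars are medians. The nuclear medians of complexes I, III, IV and V lie between 0.86 and 1.08 at week 10 and between 2.07 and 2.37 at week 14, where the calls rest on the 2 libraries of low RIN.

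At week 14, 76 members were called higher than at week 6 and none lower, against 24.5% and 8.56% of all genes. They were 71 nuclear genes, the 3 pseudogenes, and mt-Nd3 and mt-Co3. Replicates 2 and 3 carried these calls, with nuclear medians of 2.88 and 2.44 against week 6, where replicate 1 had 0.16. Without both, only replicate 1 is left at week 14, so that a test of this age cannot be read. The nuclear median was then 0.15. With only replicate 2 or only replicate 3 left out, 57 and 65 members were called, and 1880 of 16316 and 2251 of 16314 genes. With cage as a factor, fitted on the Il10KO libraries, no member was called at week 14 (50 had an unadjusted p below 0.05), at week 10 (1) or across the ages (3). Of all 16182 genes, that fit called 0, 2 and 0, so the lack of calls is not particular to the members. On log2 TPM, limma called 43 members higher and 22 lower, against 5.39% and 54.5% of all genes, and the 22 included 10 mitochondrial genes.

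The largest rises at week 14 were of Atp5md, Atp5e and Ndufa4. Atp5md, a small subunit of the membrane part of ATP synthase, had 34.2, 44 and 40.8 CPM at week 6 and 48.8, 1460 and 868 at week 14, a change of 4.32 ± 0.85 (adjusted p = 0.00616). Atp5e went from the values above to 106, 3140 and 1710 CPM (3.90 ± 0.81, adjusted p = 0.00616). Ndufa4, a subunit of complex IV despite its complex I name, had 64.2, 69.8 and 67.9 CPM at week 6 and 70.7, 1540 and 1120 at week 14 (3.75 ± 0.76, adjusted p = 0.00616). In each of the 3, replicate 1 was close to the week 6 libraries and replicate 2 was the highest of all 18. These 3 transcripts are 363, 421 and 605 bases long.

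Other members with the smallest p across the 5 ages had their highest levels in the same 2 libraries. Uqcrh, the hinge protein that binds cytochrome c1 in complex III, had 161, 190 and 169 CPM at week 6, 637, 557 and 362 at week 12, with 221, 2820 and 1990 at week 14. Ndufa7, an accessory subunit of complex I, had 56.8, 55.4 and 58.4 CPM at week 6, 199, 168 and 115 at week 12, with 69.9, 785 and 467 at week 14. Over the 5 ages 69 members were called, 64 of them nuclear and 2 mitochondrial, against 27.4% of all genes. Without week 14 replicate 2 this count was 3 members (1261 of all genes), and without replicate 3 it was 30 (1770). Leaving out single week 6 libraries gave 39 (1412), 45 (1611) and 44 (1564). The most abundant members per length of complexes I and III, Ndufa11 and Uqcr10, had mean changes of 2.65 ± 0.55 and 2.88 ± 0.60 at week 14 (adjusted p = 0.00616 for both).

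Change went with transcript length among the nuclear members, as it did among all genes. The 71 nuclear genes called at week 14 had a median transcript length of 658 bases and the 12 that were not called 1596 bases, against 2445 bases over all genes with a length. Nuclear members under 500 bases (10 genes) changed by a median of 2.62 at week 14, those of 500 to 750 bases (39) by 2.37, those of 1000 to 1500 bases (9) by 1.59 and those of 1500 to 2500 bases (9) by 0.21. Other genes of these lengths had medians of 1.91, 2.04, 0.97 and 0.24. At week 12 the nuclear medians in these bins were 1.56, 1.32, 0.94 and 0.05, and those of other genes 1.24, 1.08, 0.58 and 0.18. In both comparisons the nuclear median lay above that of other genes in these bins up to 1500 bases and slightly below it from 1500 to 2500 bases. Week 10 differed at both ends, with nuclear medians of 1.02 against 1.09 for other genes under 500 bases and 0.33 against 0.2 from 1500 to 2500 bases.

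Among the long transcripts are those of catalytic and core subunits. Sdha, the flavoprotein that oxidises succinate, has a transcript of 2812 bases, the longest of the members. It had 323, 312 and 325 CPM at week 6, 145, 213 and 316 at week 10, 204, 164 and 225 at week 12, with 305, 81.7 and 120 at week 14. Its changes were -0.69 ± 0.38 at week 12 and -0.92 ± 0.38 at week 14 (adjusted p = 0.2 and 0.0666). Without the 2 libraries of low RIN it was the 1 nuclear member called lower at week 12 (-0.76, adjusted p = 0.021). Among genes chosen after their values were seen, Ndufs1, the largest iron-sulphur subunit of complex I, changed by -0.38 ± 0.25, and the ATP synthase alpha and beta subunits, Atp5a1 and Atp5b, by -0.38 ± 0.24 and 0.16 ± 0.19 at week 14. None of these 3 passed the edgeR test, whereas limma on log2 TPM called all 3 lower (-1.69, -1.64 and -0.68, adjusted p = 0.0133, 0.0132 and 0.0302), which turns the sign of Atp5b. On that scale 54.5% of all genes were called lower at week 14, and the median of all genes was -0.74.

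The other subunits of succinate dehydrogenase went the other way from Sdha. Sdhb, the iron-sulphur subunit (1142 bases), had 178, 216 and 189 CPM at week 6, 425, 393 and 250 at week 10, then 236, 825 and 693 at week 14. Sdhc, the larger membrane anchor (1205 bases), had 202, 223 and 210 CPM at week 6, 346, 336 and 275 at week 10, then 241, 401 and 435 at week 14. Both were called by edgeR at week 14 (1.59 ± 0.34 and 0.76 ± 0.23, adjusted p = 0.00616 and 0.0238). On the TPM scale the value of Sdhc was -0.52, beside -0.74 for all genes. Without the 2 libraries of low RIN, Sdhb, Sdhc and Sdhd were called higher at week 10, by 0.81, 0.53 and 1.44 (edgeR adjusted p = 0.00339, 0.0181 and 0.00235). The 4 subunits are needed in equal numbers in the complex, and their messages moved by unequal amounts.

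**Figure D3:**
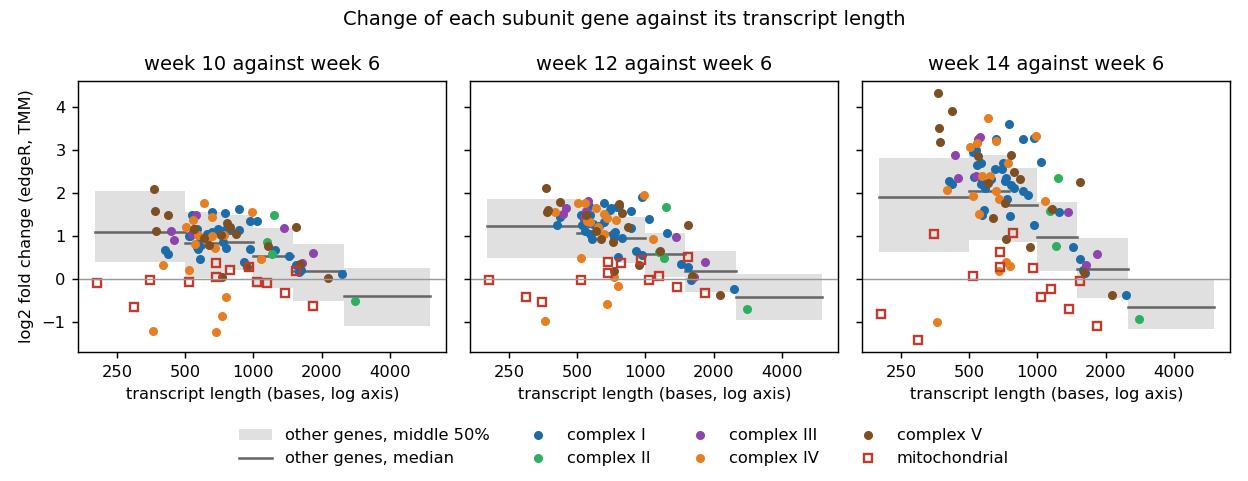
Log2 fold change (vertical axis) of each subunit gene against its transcript length in bases (horizontal, log axis) at weeks 10, 12 and 14 against Il10KO week 6; dots are nuclear genes coloured by complex, open squares mitochondrial genes, and lines and bands the median and the middle 50% of other genes in 6 length bins. The nuclear dots fall with length as the bands do, from a median of 2.62 under 500 bases to 0.21 at 1500 to 2500 bases at week 14, and at week 14 the mitochondrial medians lie below the bands in each bin under 1500 bases.

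A fit with each library's trend with transcript length as an offset was added after the data were seen. With this offset and without the 2 libraries of low RIN, 18 nuclear members were called higher and 4 lower at week 10, against 27.0% and 20.6% of all genes. At week 12 there were 19 higher and 3 lower, against 15.5% and 12.2%. Of the mitochondrial genes, 5 were called lower at week 10 and 4 at week 12, none higher. Uqcrfs1 (0.77, adjusted p = 0.0013), Sdhd (0.99, 0.00275) and Ndufs4 (0.86, 0.00203) were among those higher at week 10, and Atp5e was not called (0.47, 0.109). The nuclear median was then 0.19 at week 10 and 0.24 at week 12. At week 14, with all 18 libraries and the offset, 30 members were called higher, against 21.3% of all genes, and 1 lower. Nuclear exceeded mitochondrial medians by 0.91 at week 10 and 0.89 at week 12 in the fit of 16 libraries with the offset.

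The trend with length was not confined to the libraries of low RIN. Per doubling of transcript length, nuclear levels against week 6 changed by -1.38 and -1.05 in week 14 replicates 2 and 3 and by 0.01 in replicate 1. The slopes were -0.68, -0.64 and -0.31 at week 12 and -0.3, -0.38 and 0.01 at week 10, in libraries of RIN 8.5 to 9.0. Over all genes they were -0.56, -0.54 and -0.39 at week 12. The 13 mitochondrial genes had slopes between -0.11 and 0.15 in every library. With RIN as a covariate, 52 of the 99 members were called at week 10, 61 at week 12 and none at week 14. Of all 16300 genes tested, that fit called 7584, 5751 and 0 at these ages. At week 14 the nuclear median exceeded the mitochondrial one by 0.12 in it.

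Tissue-restricted isoforms of complex IV stayed at low levels. Cox6a2 and Cox8b, the forms of heart and skeletal muscle, were at most 1.09 CPM in any library, and Cox8b was at 0.489, 0.348 and 0.501 CPM at week 6 and 0, 0.137 and 0.421 at week 10. Their common counterparts had 915, 904 and 467 CPM (Cox6a1) and 304, 314 and 233 CPM (Cox8a) at week 10, and per length, on TPM, Cox6a2 was 0.00664% to 0.15% of Cox6a1 and Cox8b up to 1.66% of Cox8a. Cox4i2, an isoform known from lung and from low oxygen, and Ndufa4l2, which is known as a target of hypoxia signalling, were between 0.669 and 3.99 CPM in all libraries. Neither passed the edgeR test without a length offset, nor did Cox6a2 or Cox8b, with or without the 2 libraries of low RIN. With the length offset described above and without those libraries, Cox4i2, Cox6a2 and Ndufa4l2 were called lower at week 10 (-1.62, -1.98 and -1.13, adjusted p = 0.0121, 0.0196 and 0.0245), and Ndufa4l2 at week 12 (-1.15, 0.0374). Per length, on TPM, Cox4i2 was 0.056% to 0.599% of Cox4i1, the common form, and Ndufa4l2 0.0646% to 3.06% of Ndufa4, each in its library.

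Cox7a1, the muscle form of another small subunit, was the exception among these isoforms. It had 11.3, 6.87 and 6.7 CPM in the wild type, 6.58, 5.94 and 8.33 at week 6, 6.76, 12.9 and 6.29 at week 10, 31.8, 18.6 and 10.9 at week 12, with 6.16, 51.1 and 31.3 at week 14. It was called at week 14 (2.08 ± 0.60, adjusted p = 0.0191), and without the 2 libraries of low RIN at week 12 (1.49, 0.0145). In that fit its week 14 change, of replicate 1 alone, was -0.18. Its common counterpart Cox7a2 had 132, 153 and 137 CPM at week 6, 506, 424 and 279 at week 12, with 156, 2320 and 1460 at week 14. Cox4i1 had 503, 522 and 509 CPM at week 6 and 1710, 1350 and 946 at week 12. Skeletal muscle markers (5 of 10 listed were tested) summed to 28.2 to 35.8 CPM at week 6 and 15.5 to 30.6 at week 12, and the 1 brown fat marker tested, Cidea, was at 0.245 to 0.348 and 0.172 to 0.382 CPM, with Tnni2 as the only skeletal muscle marker called higher at week 12 in the fit of 16 libraries.

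The mitochondrial genes did not move together in the libraries of low RIN. mt-Nd4l, mt-Nd4 and mt-Nd5, which encode membrane subunits of complex I, were among the lowest there. mt-Nd4l had 275, 426 and 311 CPM at week 6 and 320, 35.6 and 25.4 at week 14. mt-Nd5 had 2440, 3600 and 2540 CPM at week 6, against 3050, 584 and 392 at week 14. For mt-Nd4 the levels were 4500, 6140 and 4490 CPM and, at week 14, 5700, 2220 and 1400. In all 3 genes replicate 1 was within the range of week 6 and replicates 2 and 3 were below it. Over the group none passed the edgeR test (-1.41 ± 0.67, -1.09 ± 0.57 and -0.70 ± 0.42, adjusted p = 0.0998, 0.124 and 0.178), while limma on log2 TPM called all 3 lower (-3.52, -2.95 and -2.22, adjusted p = 0.0127, 0.0127 and 0.0137). On that scale 54.5% of all genes were called lower, and the median of all genes was -0.74.

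The cytochrome c oxidase gene mt-Co3 went the other way. It had 6810, 8680 and 7090 CPM at week 6, 9340, 10200 and 9710 at week 12, with 9570, 25400 and 12700 at week 14. Its week 14 change was 1.08 ± 0.35 in edgeR with TMM (adjusted p = 0.0298) but -0.33 on the TPM scale, where the median of all genes was -0.74. mt-Nd3, another membrane subunit of complex I, had 121, 145 and 178 CPM in the wild type, 197, 326 and 182 at week 6 and 252, 682 and 519 at week 14 (1.04 ± 0.36, adjusted p = 0.0375, and -0.27 on TPM). mt-Co2, which carries the site where cytochrome c delivers electrons, had 6140, 7400 and 5890 CPM at week 6 and 8130, 14500 and 7190 at week 14. Against the week 6 mean, mt-Co3 was at 1.76 and 0.76 on the log2 scale in replicates 2 and 3, where mt-Nd4l was at -3.22 and -3.7.

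The remaining genes lay between these. mt-Nd1 had 3380, 4380 and 3420 CPM at week 6 and 4540, 5460 and 3340 at week 14, and mt-Nd2 had 1910, 2700 and 2020 against 2380, 1590 and 984. mt-Cytb, the only mitochondrial gene of complex III, had 6990, 5200 and 3160 CPM at week 14, beside the week 6 levels given above. mt-Co1, the catalytic subunit of complex IV, had 19800, 22800 and 19600 at week 6, 26000, 29700 and 32700 at week 12, with 26800, 22000 and 11400 at week 14. None of these 4 passed the edgeR test of all 18 libraries in any comparison. On log2 TPM, limma called all 4 lower at week 14 (-1.05, -1.78, -1.58 and -1.42, adjusted p = 0.0348, 0.0143, 0.0189 and 0.0295), where the median of all genes was -0.74 and 54.5% of them were called lower. mt-Nd6 is read from the other strand and its message lacks a poly(A) tail; it had 559, 811 and 582 CPM at week 6 and 724, 805 and 525 at week 14, and without a stated strand setting its reads cannot be told apart from those of the opposite strand.

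**Figure D4:**
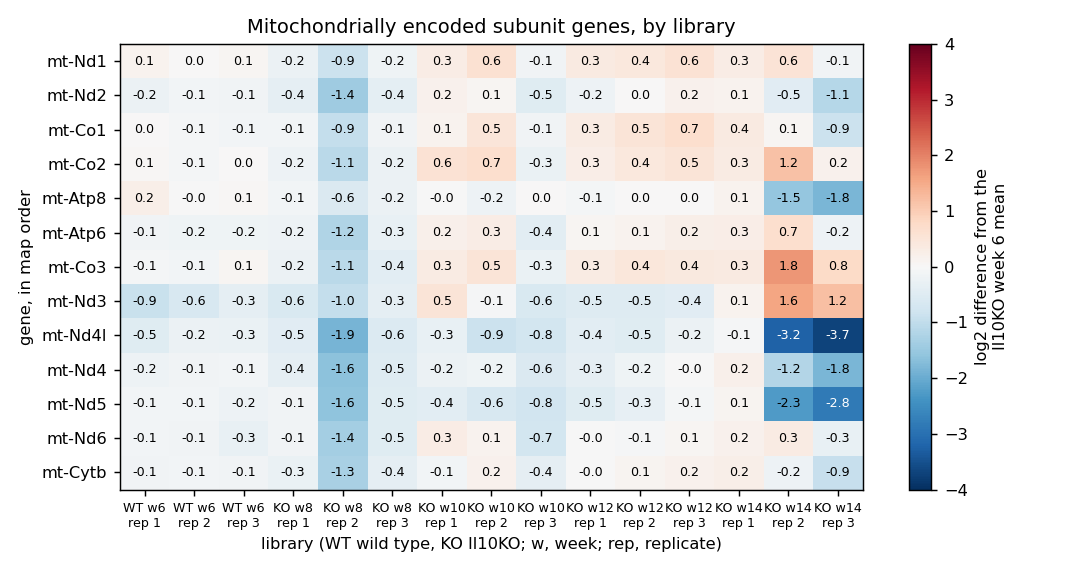
Log2 difference from the Il10KO week 6 mean (colour and printed value) of the 13 mitochondrially encoded subunit genes, in map order from top to bottom, in the 15 libraries outside that group. Week 8 replicate 2 is low in all 13 genes, whereas week 14 replicates 2 and 3 run from -3.22 and -3.7 (mt-Nd4l) to 1.76 (mt-Co3) and 1.19 (mt-Nd3).

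Neighbouring genes of 1 message give a comparison inside the RNA. mt-Atp8 and mt-Atp6, which encode membrane subunits of ATP synthase, overlap by 43 bases at chrM:7927-7969, and mt-Nd4l and mt-Nd4 by 7 bases at chrM:10167-10173 (GENCODE vM21, GRCm38, plus strand). The first bases of the downstream gene of each pair are shown because each start codon, in capitals, lies inside the upstream gene (chrM:7927-7953 and chrM:10167-10193).
mt-Atp6: ATGaacgaaaatctatttgcctcattc
mt-Nd4: ATGctaaaaattattcttccctcacta

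Within both pairs the upstream gene was lower in the libraries of low RIN. mt-Atp8 had 45.6, 56.5 and 47.6 CPM at week 6 and 54.6, 17.1 and 14.1 at week 14, and mt-Atp6 had 5620, 7660 and 5670 against 7550, 9910 and 5480. Per 100 counts of mt-Atp6, mt-Atp8 had 0.812, 0.738 and 0.84 at week 6, 0.715, 0.723 and 0.678 at week 12, with 0.724, 0.172 and 0.257 at week 14. Per 100 counts of mt-Nd4, mt-Nd4l had 6.11, 6.94 and 6.93 at week 6 and 5.61, 1.6 and 1.81 at week 14. Week 14 replicates 2 and 3 were the lowest of all 18 libraries in both ratios. Reads of a message and estimated counts in an overlap are shared between the genes, so the ratios compare libraries and not absolute amounts.

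Nuclear copies on chromosome 1 match parts of several mitochondrial genes. Those of mt-Atp6, mt-Co2, mt-Co3, mt-Nd4 and mt-Nd4l have no substitution in the aligned bases, so reads there cannot tell gene and copy apart. Of these copies only that of mt-Atp6, Gm10925, is in the gene table, with 0 to 195 counts per library. The copies of mt-Co1 and mt-Nd3 are in the gene table as well. The unprocessed pseudogene Gm29216, at chr1:24615706-24616197 (minus strand, GRCm38), matches bases 1063 to 1545 of the mt-Co1 transcript, counted from its 5′ end, with 1 substitution (A1066T, the mitochondrial base first). Gm28438, at chr1:24612775-24613119 (minus strand), matches mt-Nd3 with 1 substitution (T3C). The substituted bases are in capitals in the windows at chrM:6390-6413 and chrM:9459-9481, which are shown because reads that miss the substituted base cannot tell gene and copy apart.
mt-Co1: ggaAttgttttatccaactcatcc
Gm29216: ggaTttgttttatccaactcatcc
mt-Nd3: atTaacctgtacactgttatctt
Gm28438: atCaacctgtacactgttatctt

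Gm29216 held 23938 to 159268 estimated counts per library. Of the counts of mt-Co1 and Gm29216 together, 7.26, 6.83 and 6.83% were listed under the copy in the wild type, 7.36, 6.86 and 6.75% at Il10KO week 6 and 7.06, 31.1 and 26.2% at week 14. Replicates 2 and 3 of week 14 were the only libraries above 9.6%. The corresponding share for mt-Nd3 ran to 27.4, 23.9 and 32.8% in the week 6 libraries and 22.3, 23.9 and 15.7% in those of week 14. It was highest in the wild type, at 50.1, 40.8 and 38.5%, and week 12 libraries had 47, 40.4 and 35.4%, so that the level of mt-Nd3 is uncertain, in the wild type most of all. In an alternative added after the data were seen, the counts of close copies were added to their genes. It called 75 members and 5387 of 16297 genes at week 14, and the nuclear exceeded the mitochondrial median by 2.16.

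**Figure D5:**
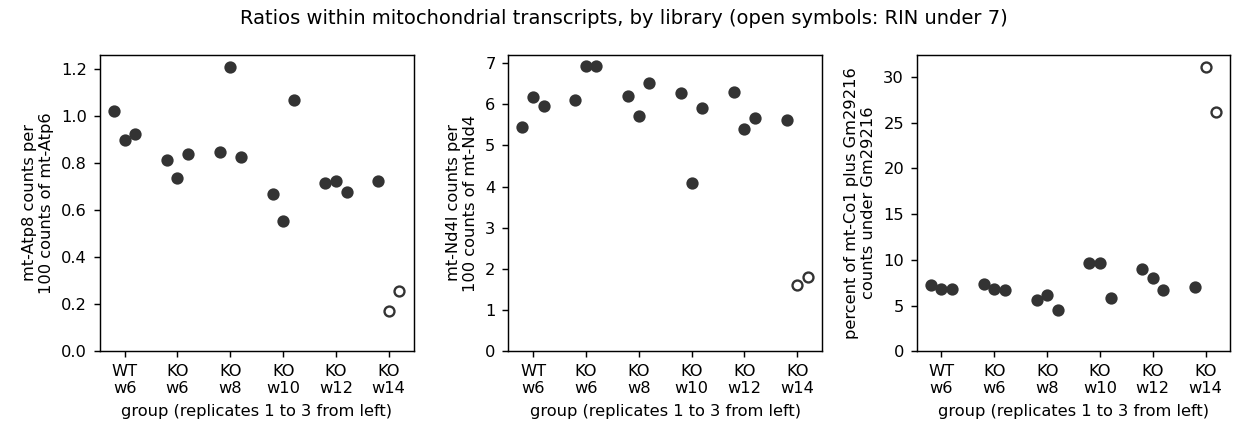
Counts of mt-Atp8 per 100 of mt-Atp6 (left), of mt-Nd4l per 100 of mt-Nd4 (middle), and the percent of mt-Co1 plus Gm29216 counts listed under the copy Gm29216 (right) in each library; open symbols mark RIN 6.5 and 5.8. The open symbols are at 0.172 and 0.257, 1.6 and 1.81, and 31.1% and 26.2%, apart from the other 16 libraries.

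Genes that build and express the mitochondrial machinery were read from lists of their own. Of 80 mitochondrial ribosomal proteins, 29 were called higher at week 10 and 74 at week 14, none lower, with medians of 1.09 and 1.92, against 14.6% and 24.5% of all genes called higher. Without the 2 libraries of low RIN, 71 were called higher at week 10 and 65 at week 12, against 24.6% and 18.8% of all genes. Only replicate 1 is left at week 14 in that fit, where the median was 0.13. Mrps27, Mrpl19 and Mrps18b had the smallest p at week 10 (0.91 ± 0.21, 1.17 ± 0.27 and 1.35 ± 0.33, adjusted p = 0.0114, 0.013 and 0.0151).

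In the fit of all 18 libraries assembly factors were called in 1 direction. Without the 2 libraries of low RIN only replicate 1 is left at week 14. The median changes were then 0.25, 0.45, 0.16, 0.15 and 0.23 for the factors of complexes I to V. The shares of all genes called higher were again 14.6% at week 10 and 24.5% at week 14. Among 18 factors of complex I, 6 were called higher at week 10 and 15 at week 14, led at week 10 by Ndufaf4 (2.13 ± 0.48, adjusted p = 0.0111). Among 22 factors of complex IV, 3 were called higher at week 10 and 14 at week 14, with Sco1, a copper chaperone of the oxidase, at 1.07 ± 0.25 at week 10 (adjusted p = 0.0127). The counts at week 10 were 1 of 4 for complex II, 1 of 6 for complex III and 1 of 5 for complex V, and at week 14 they were 4, 4 and 5. Of 4 further subunits and carriers, 2 were called at week 10. These were Cycs, cytochrome c itself (2.36 ± 0.56, adjusted p = 0.0139), and Cyc1, cytochrome c1 of complex III (1.01 ± 0.32, 0.035).

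Factors that act on mitochondrial DNA and RNA were mixed. Of 28 genes, 8 were called higher at week 10 and none lower, against 14.6% and 9.48% of all genes. At week 14, 11 were higher and 1 lower, against 24.5% and 8.56%. Without the 2 libraries of low RIN the week 14 median, of replicate 1 alone, was 0.08. Supv3l1 and Pnpt1, the helicase and nuclease of mitochondrial RNA decay, rose at week 10 by 1.09 ± 0.16 and 1.38 ± 0.27 (adjusted p = 0.00208 and 0.00662), and Fastkd2, a mitochondrial RNA-binding protein, by 2.02 ± 0.48 (0.0132). In the fit of 16 libraries 11 were called higher and 2 lower at week 10, against 24.6% of all genes higher and 4368 of 16319 lower. At week 12 the counts were 9 higher and 3 lower, against 18.8% and 22.0% of all genes.

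Regulators of mitochondrial biogenesis had a median change of -0.08 at week 10, with 3 of 12 called higher, against 14.6% of all genes. These were Perm1 (2.20 ± 0.43, adjusted p = 0.00606), Gabpb1 (0.90 ± 0.26, 0.0259) and Esrra (1.19 ± 0.38, 0.0378), the last of which encodes a nuclear receptor that acts on respiratory genes. Without the 2 libraries of low RIN the same 3 were called higher at week 10 and 5 lower. Of all 16319 genes, 24.6% were called higher in that fit and 4368 lower. Those lower were Ppara (-2.14, edgeR adjusted p = 0.00172), Ppargc1a (-1.28, 0.0079), Esrrg (-1.8, 0.0103), Nfe2l2 (-0.53, 0.0111) and Yy1 (-0.34, 0.0398). In the citric acid cycle and pyruvate dehydrogenase 4 of 18 genes were called higher at week 10, against the same 14.6%, with a median of 0.19, led by Pdhx and Pdhb, of the pyruvate dehydrogenase complex (1.08 ± 0.25 and 0.99 ± 0.24, adjusted p = 0.0121 and 0.0136). Of 13 inner and outer membrane carriers 2 were called higher, Slc25a31 and Vdac2, which is near the share of all genes. Of 9 mitophagy genes 5 were called higher and 1, Pink1, lower (-1.11 ± 0.32, adjusted p = 0.0258).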

How the data were processed

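Polyadenylated RNA of 18 distal colon samples in 6 groups of 3 was sequenced. Per the submitters' processing notes, the authors checked reads with FastQC and quantified them with kallisto on mm10. The versions, annotation release and strand setting are not given in the sources used here. The authors deposited estimated counts per gene, rounded to whole numbers, and TPM per gene, which is scaled to transcript length. Per the file headers, transcript tables hold estimated counts, TPM and lengths in bases, and a gene's length here is the TPM-weighted mean of its transcripts. Every gene of the deposited table has at least 50 counts in total.

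From the estimated counts, edgeR 4.0.16 (R 4.3.3) fitted 6 group means over all 18 libraries with TMM scaling, filterByExpr and the quasi-likelihood F test. The Benjamini-Hochberg adjustment ran over 16300 genes, and the common coefficient of variation was 0.394. CPM are TMM-scaled. Alternatives were DESeq2 1.42.0, limma 3.58.1 on log2 of the deposited TPM plus 1 or 0.1, voom with group weights, other scalings and filters, RIN, cage or replicate number in the model, only the groups compared, and fits without libraries. A length offset and the addition of nuclear copies were chosen after seeing the data. Tools were tested on simulated data. Copies were found with BLAST 2.17.0 in GENCODE vM21 transcripts, and promoter sequence is from RefSeq (GRCm38.p6).

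Members and gene lists were chosen with earlier results of these data known. Values by library are given for mitochondrial members, complex II, the tissue isoforms and their counterparts, up to 3 nuclear members with the largest change per comparison, the most abundant nuclear member per complex and the 5 smallest p across ages. In other lists, members with the smallest p were named. Replicates are separate mice, so p-values measure the spread between mice.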

Additional observations from a re-analysis of the deposited data

Results flagged for a closer look

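The share of mt-Co1 plus Gm29216 counts listed under the nuclear copy Gm29216, a gene outside the subunit list, had means of 8.33% at week 10, 7.9% at week 12 and 21.5% at week 14. Each mean lies above the highest wild-type library, at 7.26%, but week 10 replicate 3 (5.78%) and week 12 replicate 3 (6.71%) lie below every wild-type library. The week 14 mean rests on replicates 2 and 3, at 31.1% and 26.2%, while replicate 1 was at 7.06%.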

How the results depend on the processing

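Counts of members called are followed in brackets by the number of all genes called, of 15356 to 16321 tested. At week 10, against 3 (3917) in the model of all libraries, DESeq2 called 18 (5939) and voom with group weights 54 (7023). Fits restricted to the compared groups gave 64 (6177), a RIN covariate 52 (7584) and a cage factor 0 (2). The fit without the 2 libraries of low RIN gave 58 (8384), the length offset 8 (5145), and both of these together 27 (7748). At week 12, against 0 (301), DESeq2 gave 24 (2507), voom 77 (10096), only the groups compared 75 (9186) and RIN 61 (5751). Without low RIN there were 67 (6664), with the length offset 3 (587), with both 26 (4507), and limma on log2 TPM plus 1 gave 3 (664). At week 14, against 76 (5388), only the groups compared, RIN and cage each gave 0 (0), and the length offset 31 (4228). Without low RIN 1 library of week 14 is left, so that no count is given. Across ages, against 69 (4471), limma on log2 TPM gave 20 (6768) and 19 (6140) for pseudocounts 1 and 0.1. A cage factor gave 0 (0) and the length offset 22 (4417). The nuclear minus mitochondrial difference was 0.47 (cage) at week 8, 0.82 (RIN) and 0.58 (cage) at week 10, 0.88 (length offset) and 0.89 (both) at week 12, 0.12 (RIN), -0.03 (without low RIN) and -0.09 (both) at week 14, and 0.51 (cage) between weeks 12 and 10. The cause of these differences was not tested. The smaller fits also hold fewer samples.

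Leaving out 1 library at a time gave 0 to 18 member calls at week 10, 57 to 86 at week 14, 3 to 84 across ages and 0 in the other comparisons. Of all genes, these fits called 767 to 5242 at week 10, 1880 to 11335 at week 14 and 1261 to 11683 across ages. In the other comparisons they called 0 to 164. The class difference ranged from -0.36 to -0.08 at week 6, 0.43 to 1.28 at week 8, 0.85 to 1.15 at week 10, 0.97 to 1.43 at week 12, 1.81 to 3.01 at week 14 and -0.16 to 0.31 between weeks 12 and 10.

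The sign changed for Uqcrc2 on TPM (-0.01 at week 10, -0.78 and -0.79 at week 14 for pseudocounts 1 and 0.1), Sdhc on TPM (-0.52) and with the length offset (-0.19), mt-Co3 on TPM (-0.33) and with the offset (-0.39), and mt-Nd3 on TPM (-0.27) and with the offset (-0.81). On TPM with pseudocount 1 the median of all genes was -0.34 at week 10 and -0.74 at week 14. At week 14 it also changed for Cox8a (-0.31) and Cox7a1 (-0.11) with the offset, and for Atp5e (-0.07) and Cox7a1 (-0.18) without low RIN. With both, the week 14 values were Atp5e -0.26, Cox7a1 -0.38, Cox7a2 -0.0, Cox8a -0.07, Ndufa11 -0.12, Ndufa4 -0.09, Uqcr10 -0.06 and mt-Nd3 -0.14.

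Replicate numbers were not taken as pairs: same-numbered libraries correlated above 0.1 in 13 of 45 pairs (-0.615 to 0.475), and 8 of 18 libraries correlated best with their own number. With the replicate block, 1 member was called at week 10, 75 at week 14 and 62 across ages, and 3046, 5630 and 3407 of all 16300 genes.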
